A study of Sus scrofa with 19 samples.

Results

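The acute cytokines IL6, CXCL8, TNF and IL10 were followed in the adrenal glands of 19 male pigs. Each cytokine was represented by the probe set of the array whose only gene symbol was that cytokine, and each had 1 such probe set (15327424 for IL6, 15320849 for CXCL8, 15308551 for TNF and 15332893 for IL10). These are 4 of the 27558 probe sets on the array. All 4 were bright enough to be kept when the dimmest 25% of probe sets were set aside, and no piglet had a value below that limit for any of them. Values are log2 signals, so a difference of 1 is a doubling of signal. A level can be compared between piglets for the same cytokine but not between cytokines, because each probe set has its own brightness.

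The sows ate a fish oil, microalgae or control diet from day 75 of gestation, and were injected on day 112 with lipopolysaccharide (LPS), the bacterial cell wall component that provokes inflammation, or with saline. From each sow 1 male piglet was used. It was weaned at 21 days, received LPS itself at 28 days and was killed 2 hours later, when the whole gland was frozen. All groups therefore share the piglet's own LPS injection, and no gland came from an unchallenged piglet.

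The fish oil diet had 4 piglets from LPS-injected sows (piglets 10, 19, 20 and 24) and 4 from saline-injected sows (9, 11, 13 and 18). The microalgae diet had 2 from LPS-injected sows (7 and 23) and 3 from saline-injected sows (12, 15 and 22). The control diet had 3 from LPS-injected sows (6, 16 and 17) and 3 from saline-injected sows (8, 14 and 21). Fish oil and microalgae both supply long-chain omega-3 fatty acids. Array medians lay between 4.38 and 4.52 and array interquartile ranges between 2.27 and 2.65, with the narrowest in piglet 24. The number of piglets limits the precision. Markers of adrenal cortex were bright in every gland, with a mean over 4 genes of 11.16 to 11.7 after maternal LPS and 11.02 to 11.74 after maternal saline. Markers of the medulla, a mean over 5 genes, lay between 6.08 and 8.14 after maternal LPS and between 6.76 and 7.91 after maternal saline.

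LPS is sensed by TLR4 with CD14 and LY96, and the signal passes through MYD88 and the IRAK kinases to the transcription factor NF-kB. NF-kB switches on TNF, IL6 and CXCL8 within hours, together with its own inhibitors NFKBIA and TNFAIP3. IL6 and TNF also act on the hormonal stress axis and raise cortisol release, CXCL8 attracts neutrophils, and IL10 restrains the production of the other three.

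IL6 had the widest spread of the 4 cytokines. It signals through the shared receptor chain IL6ST and the JAK kinases to STAT3. In fish oil litters its signal was 8.83, 10.73, 10.20 and 9.53 after maternal LPS, against 9.53, 9.31, 11.02 and 11.36 after maternal saline. In microalgae litters it was 8.86 and 9.85 after maternal LPS, against 10.68, 11.18 and 10.78 after maternal saline. In control litters it was 8.98, 11.13 and 11.13 after maternal LPS, against 9.80, 10.50 and 10.88 after maternal saline. The groups overlapped in fish oil litters, and in control litters all 3 saline piglets lay between the lowest and the highest LPS piglet. In microalgae litters both LPS piglets lay below all 3 saline piglets, as they did in 14.7% of the probe sets kept. The 3 lowest piglets of the study, 10, 7 and 6, all came from LPS-injected sows and from a different diet each, and the next lowest, 11, came from a saline-injected sow. From the lowest to the highest gland the IL6 signal differed 5.76-fold.

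CXCL8, the neutrophil attractant that binds CXCR1 and CXCR2, followed almost the same order of piglets. In fish oil litters it was 9.32, 10.58, 10.56 and 10.21 after maternal LPS, against 9.78, 10.18, 10.85 and 10.78 after maternal saline. In microalgae litters it was 9.62 and 10.49 after maternal LPS, against 10.43, 10.72 and 10.80 after maternal saline. In control litters it was 9.74, 10.84 and 10.90 after maternal LPS, against 9.87, 10.33 and 10.89 after maternal saline. The groups overlapped in all 3 diets. Piglets 10, 7 and 6 were again the 3 lowest. The glands spanned a 2.99-fold range of CXCL8 signal.

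TNF, the early cytokine that macrophages release and that acts through TNFRSF1A and TNFRSF1B, was spread differently. In fish oil litters it was 5.37, 5.09, 4.87 and 5.51 after maternal LPS, against 5.37, 5.43, 5.23 and 5.81 after maternal saline. In microalgae litters it was 5.53 and 4.50 after maternal LPS, against 5.45, 5.27 and 4.82 after maternal saline. In control litters it was 5.58, 4.78 and 5.26 after maternal LPS, against 5.26, 4.96 and 4.27 after maternal saline. All 3 pairs of groups overlapped. Piglets 6 and 7, among the lowest for IL6 and CXCL8, were among the highest for TNF. Only piglet 18 lay above them, and it also had the highest IL6 and IL10 signals of the study. The lowest TNF signal was that of piglet 21, which had one of the highest CXCL8 signals. The range over the 19 glands was 2.9-fold.

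IL10, which limits macrophage cytokine output through STAT3, had a signal close to the limit of 3.23 that was set for dim probe sets. In fish oil litters it was 3.41, 3.96, 3.47 and 3.90 after maternal LPS, against 3.86, 3.94, 3.41 and 4.13 after maternal saline. In microalgae litters it was 3.46 and 3.38 after maternal LPS, against 3.96, 4.07 and 3.90 after maternal saline. In control litters it was 3.88, 3.89 and 3.75 after maternal LPS, against 3.57, 3.99 and 3.58 after maternal saline. Only the microalgae groups did not overlap, with both LPS piglets below all 3 saline piglets, as in 14.7% of the probe sets kept. Over all glands the range was 1.68-fold, the narrowest of the 4.

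**Figure D1:**
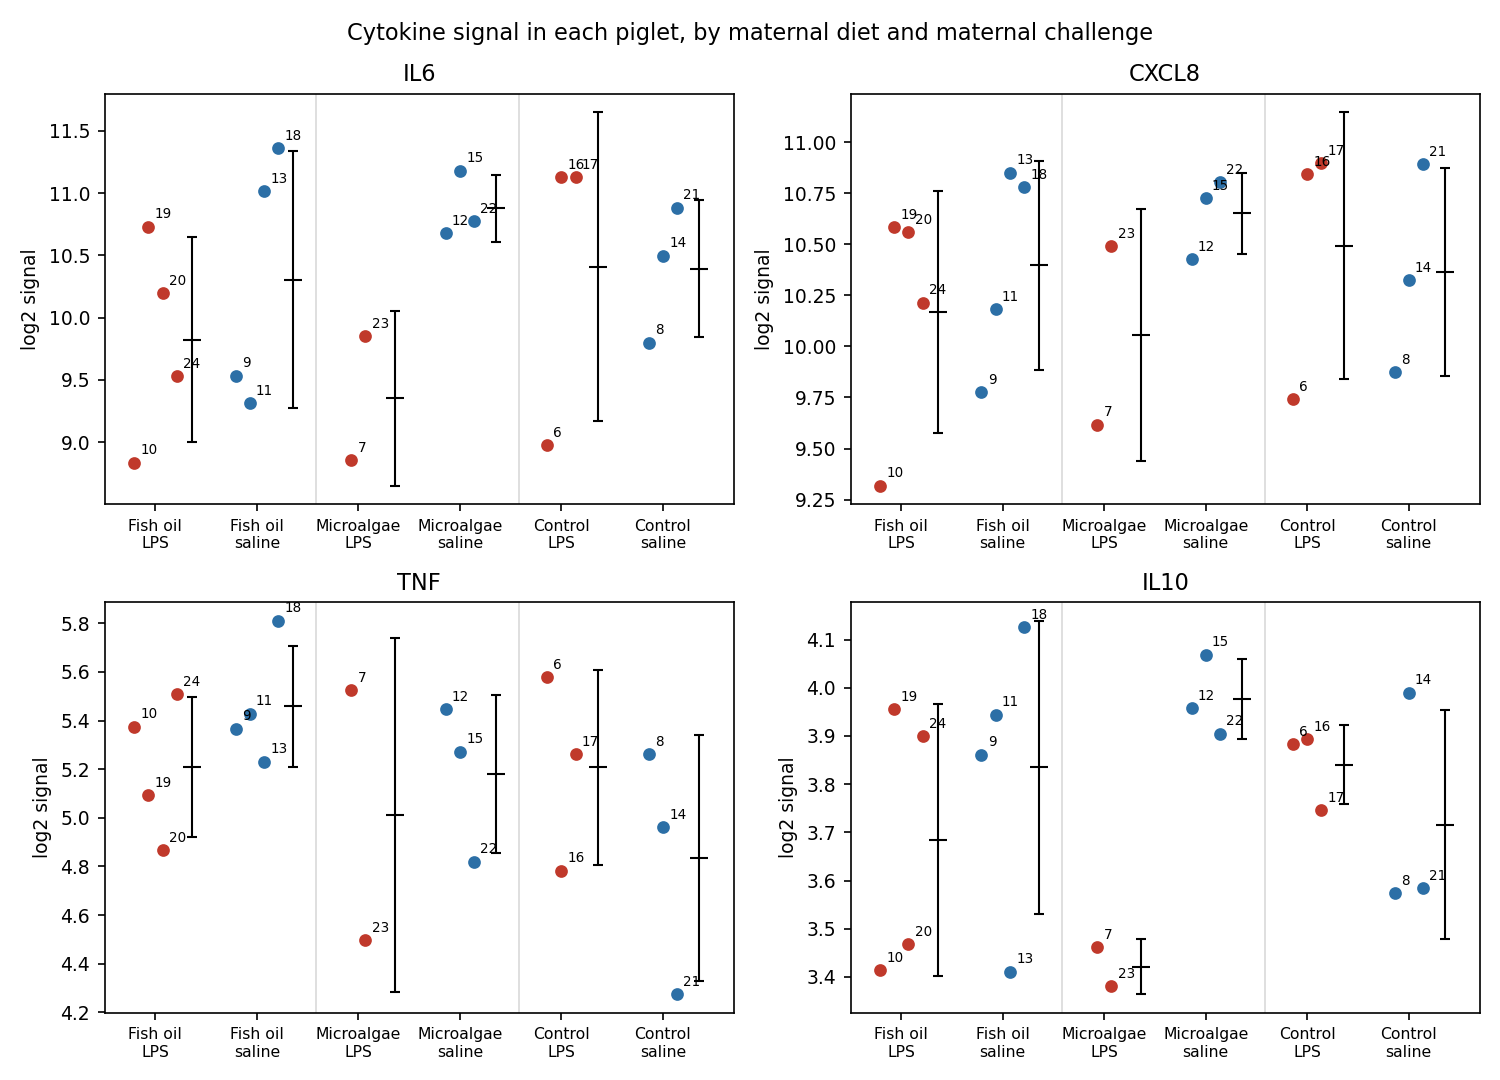
Log2 signal of IL6, CXCL8, TNF and IL10 (vertical axes) in each piglet, by maternal diet and maternal challenge (horizontal axes); red points are piglets of LPS-injected sows and blue points piglets of saline-injected sows, numbered by piglet, and black marks are group means with SD. In microalgae litters both LPS piglets lie below all 3 saline piglets for IL6 and IL10, as they do for 14.7% of the probe sets kept. Every other LPS group overlaps the saline group of its own diet.

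The variation of IL6 between glands was wide compared with most genes. Within the 6 groups its SD was 0.857 log2, wider than in 98.7% of the 20668 probe sets tested, whose median SD was 0.264. CXCL8 had a within-group SD of 0.531 and exceeded 92.8% of probe sets. TNF had 0.393 and exceeded 82.6%, while IL10 had 0.225 and exceeded 33.6%. Most of the variance lay between piglets of the same group. The 6 group means accounted for 27.7% of the variance of IL6 and 15.02% of that of CXCL8. They accounted for 26.9% of that of TNF and 40.0% of that of IL10. Such a share is positive even where groups do not differ, and it was not corrected for the number of groups. The SD over all piglets was 0.8565 for IL6, 0.4896 for CXCL8, 0.3905 for TNF and 0.2473 for IL10. Only for IL10 was the within-group SD smaller than this.

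From low to high, the group means of IL6 ran from 9.35 ± 0.70 in microalgae LPS piglets (SD, n = 2) through 9.82 ± 0.82 in fish oil LPS (n = 4), 10.31 ± 1.03 in fish oil saline (n = 4), 10.39 ± 0.55 in control saline (n = 3) and 10.41 ± 1.24 in control LPS (n = 3) to 10.88 ± 0.27 in microalgae saline piglets (n = 3). The CXCL8 means had the same group at each end, 10.05 ± 0.62 in microalgae LPS and 10.65 ± 0.20 in microalgae saline piglets. TNF was highest in fish oil saline piglets at 5.46 ± 0.25 and lowest in control saline piglets at 4.83 ± 0.51. In these orders each step between neighbouring groups was smaller than the larger of their SDs. IL10 began at 3.42 ± 0.06 in microalgae LPS piglets. Its steps were likewise small up to 3.84 ± 0.08 in control LPS piglets, but the last one, to 3.98 ± 0.08 in microalgae saline piglets, was larger than both SDs and was not tested.

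Whether an LPS injection of the sow altered the cytokines of her offspring was asked first over the 3 diets together. None of the 4 cytokines passed the threshold. IL6 was 9.91 ± 0.94 in the 9 piglets of LPS-injected sows and 10.50 ± 0.71 in the 10 of saline-injected sows (SD). The fitted difference, LPS minus saline averaged over diets, was -0.66 ± 0.35 log2 (SE), or 0.631 times the saline signal, with an adjusted p of 0.697 in limma and an exact permutation p of 0.122. IL10 was 3.68 ± 0.24 after maternal LPS and 3.84 ± 0.24 after maternal saline, a difference of -0.19 ± 0.11 (limma adjusted p 0.711). CXCL8 was 10.25 ± 0.57 after maternal LPS and 10.46 ± 0.41 after maternal saline, a difference of -0.23 ± 0.22 (limma adjusted p 0.798). TNF was 5.17 ± 0.38 after maternal LPS and 5.19 ± 0.42 after maternal saline, a difference of -0.01 ± 0.17 (limma adjusted p 0.99).

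All p-values here are two-sided, and adjustment is by the Benjamini-Hochberg method over all 20668 probe sets, of which 2 passed (0.00968%). No cytokine reached an unadjusted p under 0.05 either, which 6.97% of probe sets did. The 95% intervals show how large a difference these arrays leave possible. They run from -1.40 to 0.08 log2 for IL6, from -0.70 to 0.24 for CXCL8, from -0.37 to 0.34 for TNF and from -0.43 to 0.04 for IL10. Without piglet 6 the IL6 difference was -0.42 and without piglet 23 it was -0.83. A whole gland mixes cell types, so fewer cells of a type and less RNA per cell cannot be told apart.

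Within microalgae litters the fitted differences of IL6, CXCL8 and IL10 were larger in size than in the other diets, and that of TNF was smaller. The difference, LPS minus saline, was -1.52 ± 0.68 log2 for IL6 (95% interval -2.96 to -0.09), or 0.348 times the saline signal. For IL10 it was -0.56 ± 0.21 (-1.01 to -0.10), or 0.681 times the saline signal. The unadjusted limma p was 0.0387 for IL6 and 0.0188 for IL10, and neither passed adjustment (limma adjusted p 0.41 and 0.346). In this comparison 11.7% of all probe sets had an unadjusted p under 0.05, and in 14.7% both LPS piglets lay below all 3 saline piglets, as IL6 and IL10 did. With 2 piglets against 3 the exact permutation test cannot give a p below 0.2, which is the value it gave for both. CXCL8 differed by -0.60 ± 0.43 (-1.51 to 0.31) and TNF by -0.17 ± 0.33 (-0.86 to 0.52). With piglet 23 as the only LPS piglet, the difference was -1.03 for IL6, -0.16 for CXCL8 and -0.68 for TNF. With piglet 7 alone it was -2.02 for IL6, -1.03 for CXCL8 and 0.35 for TNF.

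In fish oil litters all 4 differences were below 0 and smaller in size than their SE. They were -0.48 ± 0.53 for IL6, -0.23 ± 0.34 for CXCL8, -0.25 ± 0.25 for TNF and -0.15 ± 0.17 for IL10, with exact permutation p from 0.286 to 0.6. Leaving out each piglet gave -0.81 (without 11) to -0.13 (without 18) for IL6, -0.44 (without 9) to 0.05 (without 10) for CXCL8, -0.35 (without 24) to -0.13 (without 18) for TNF, and -0.29 (without 13) to -0.05 (without 18) for IL10. In control litters they were above 0, at 0.02 ± 0.61 for IL6, 0.13 ± 0.39 for CXCL8, 0.38 ± 0.29 for TNF and 0.12 ± 0.19 for IL10, with exact permutation p from 0.4 to 1. The sign for IL6 there turned with quantile normalization (-0.01) and with centring on the array median (-0.0002383). Without piglet 16 the difference for IL6 in control litters was -0.34, and without piglet 6 it was 0.73. Over such omissions it ran from -0.12 (without 8) to 0.51 (without 6) for CXCL8, from 0.10 (without 21) to 0.59 (without 8) for TNF and from 0.05 (without 8) to 0.26 (without 14) for IL10.

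Whether the effect of maternal LPS differed between diets was tested by the interaction. The difference between the maternal LPS effect in microalgae and in control litters was -0.68 ± 0.29 log2 for IL10 (95% interval -1.29 to -0.07, unadjusted limma p 0.03, adjusted 0.858) and -1.54 ± 0.92 for IL6 (-3.47 to 0.39, limma adjusted p 0.858). At an unadjusted p under 0.05, 5.41% of probe sets had such an interaction. For CXCL8 it was -0.73 ± 0.58 and for TNF -0.54 ± 0.44. Without piglet 7 these were -0.29 for CXCL8 and -1.06 for TNF, and without piglet 23 they were -1.16 and -0.03. The IL6 value ran from -2.26 without piglet 6 to -1.04 without piglet 7. The corresponding values for fish oil were -0.50 ± 0.81 for IL6, -0.36 ± 0.51 for CXCL8, -0.62 ± 0.39 for TNF and -0.28 ± 0.25 for IL10, each with a limma adjusted p of 1. Single omissions moved them from -1.22 (without 6) to -0.14 (without 16) for IL6, from -0.73 (without 6) to -0.07 (without 10) for CXCL8, from -0.84 (without 8) to -0.35 (without 21) for TNF and from -0.42 (without 13) to -0.18 (without 18) for IL10. No difference between diets in the response of a cytokine to maternal LPS passed the adjusted threshold.

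The omega-3 diets were each set against the control diet over both maternal challenges. TNF was 5.33 ± 0.28 in the 8 fish oil piglets and 5.02 ± 0.46 in the 6 control piglets, a fitted difference of 0.31 ± 0.19 log2 (95% interval -0.10 to 0.72, limma adjusted p 1, exact permutation p 0.163). For fish oil the differences were -0.34 ± 0.40 for IL6 (-1.19 to 0.51), -0.15 ± 0.26 for CXCL8 (-0.68 to 0.39) and -0.02 ± 0.13 for IL10 (-0.29 to 0.25). For microalgae, in 5 piglets, they were -0.29 ± 0.46 for IL6 (-1.25 to 0.68; -0.04 without piglet 7 and -0.64 without piglet 6), -0.08 ± 0.29 for CXCL8 (-0.69 to 0.54), 0.07 ± 0.22 for TNF (-0.39 to 0.54) and -0.08 ± 0.14 for IL10 (-0.38 to 0.22). None of the 4 cytokines had an unadjusted p under 0.05 for either diet, against 2.69% of probe sets for fish oil and 1.65% for microalgae. The intervals for IL6 still hold a change of more than 1 log2 downward in either diet.

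**Figure D2:**
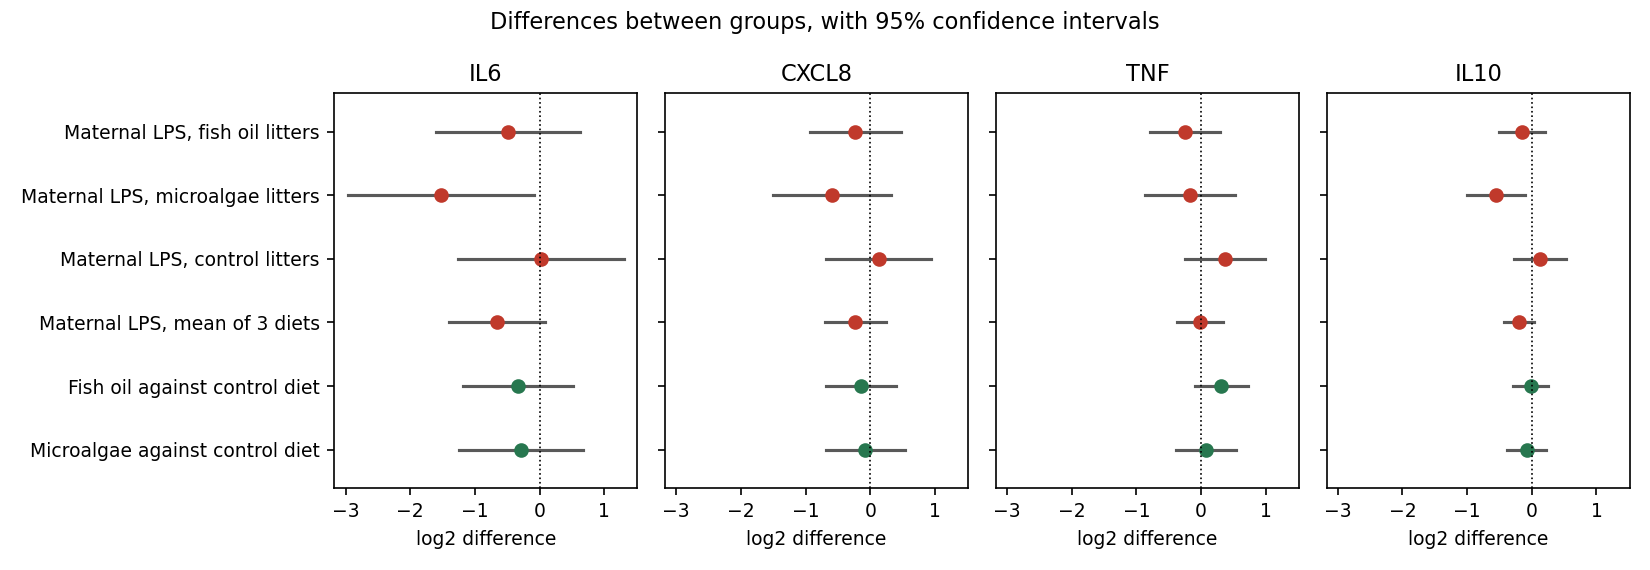
Differences in log2 signal (horizontal axes) with 95% confidence intervals from limma, for maternal LPS minus saline within each diet and over the 3 diets (red) and for each omega-3 diet minus control (green). The intervals of IL6 and IL10 in microalgae litters lie below 0 before adjustment, and all others include 0.

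The cytokines were then compared with each other between glands. To keep the groups out of this, each value was taken as its deviation from the mean of the piglet's own group, and the deviations were permuted within groups in all 248832 ways. IL6 and CXCL8 rose and fell together. Their correlation over the 19 piglets was r = 0.916 (exact permutation p 0.000418, adjusted over the 6 pairs 0.00251), with Spearman's rho 0.847 (exact permutation p 0.000659, adjusted 0.00395). Both cytokines lay on the same side of their group means in 16 of 19 piglets, and a gland 1 log2 above its group mean in IL6 was on average 0.568 log2 above it in CXCL8. Deviations cancel within a group, so these piglets are not independent counts, and the microalgae LPS pair always mirror each other. The relation was present in piglets of LPS-injected sows (r = 0.952) and of saline-injected sows (0.863). Within single groups r was 0.926 in fish oil LPS, 0.896 in fish oil saline, 0.485 in microalgae saline, 0.999 in control LPS and 0.974 in control saline piglets, with 3 or 4 piglets each.

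Without piglets 6 and 11, the farthest from the median, r for IL6 and CXCL8 was 0.933 (exact permutation p 0.00193). Leaving out each piglet in turn gave 0.891 to 0.943, with the adjusted p under 0.05 in all 19 cases. The values as deposited, with the groups left in, gave r = 0.917 and rho = 0.898. Each had a permutation p of 2e-05, the smallest that the 100000 random permutations used for deposited values can give. With the spread of each array removed from both cytokines the within-group r was 0.911. The correlations of the cytokines with the array spread were 0.290 for IL6, 0.245 for CXCL8, -0.388 for TNF and -0.251 for IL10 (exact permutation, adjusted p 0.578, 0.578, 0.225 and 0.578). Without piglets 15 and 24, the farthest for array spread, they were 0.584 for IL6, 0.651 for CXCL8, -0.382 for TNF and 0.122 for IL10. The exact permutation p was then 0.154, 0.0448, 0.143 and 0.663 before adjustment. The labels and files name no processing batch, so no within-batch values could be had.

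TNF was low in many of the glands that were high in CXCL8. The correlation was r = -0.622 (exact permutation p 0.0239), which missed the threshold after adjustment over the 6 pairs (0.0716), while rho was -0.690 and passed it (0.0491). The deposited values gave r = -0.453 (permutation p 0.043, not adjusted). With the array spread removed from both, the within-group r was -0.590 (exact permutation p 0.0295, adjusted 0.0884). TNF and CXCL8 lay on opposite sides of their group means in 13 of 19 piglets, which again are not independent counts. Between piglets of LPS-injected sows r was -0.735, and between those of saline-injected sows -0.467. Leaving out piglet 18, the fish oil saline piglet with the highest TNF, gave -0.739 (adjusted p 0.0081), and leaving out piglet 9 gave -0.703 (0.035). These were the only 2 of 19 single omissions that passed, and without piglet 21 r was -0.557. Within single groups r was -0.607 in fish oil LPS, 0.249 in fish oil saline, -0.841 in microalgae saline, -0.774 in control LPS and -0.988 in control saline piglets. Without piglets 6 and 10, the farthest for CXCL8, it was -0.599 (exact permutation p 0.0916).

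TNF and IL6 had r = -0.455 and rho = -0.463 (exact permutation p 0.0726 and 0.0718, adjusted 0.145 and 0.144). The deposited values gave r = -0.301 (permutation p 0.21). With the array spread removed from both, the within-group r was -0.388 (exact permutation p 0.132, adjusted 0.265). Without piglet 18 r was -0.645 and passed (adjusted p 0.0109), and without piglets 6 and 11 it was -0.405. Among piglets of LPS-injected sows it was -0.723 and among those of saline-injected sows -0.103, a difference that was not tested. By the values as deposited, 3 of the 5 piglets with the lowest IL6 were among the 5 with the highest TNF. At the other end, of the 5 with the highest IL6 only piglet 16 was among the 5 with the lowest TNF. Piglet 18 was highest in both.

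IL10 followed none of the other three closely. Its r was 0.0814 with IL6, 0.0326 with CXCL8 and 0.314 with TNF, with rho of 0.117, -0.0930 and 0.270 and adjusted exact permutation p from 0.255 to 0.906. Left as deposited, with the group differences in, r was 0.364 with IL6 (permutation p 0.125), 0.252 with CXCL8 and 0.347 with TNF. Without the 2 farthest piglets of each pair r was 0.241, -0.205 and 0.263. The sign for IL10 with CXCL8 thus changed with the setting.

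**Figure D3:**
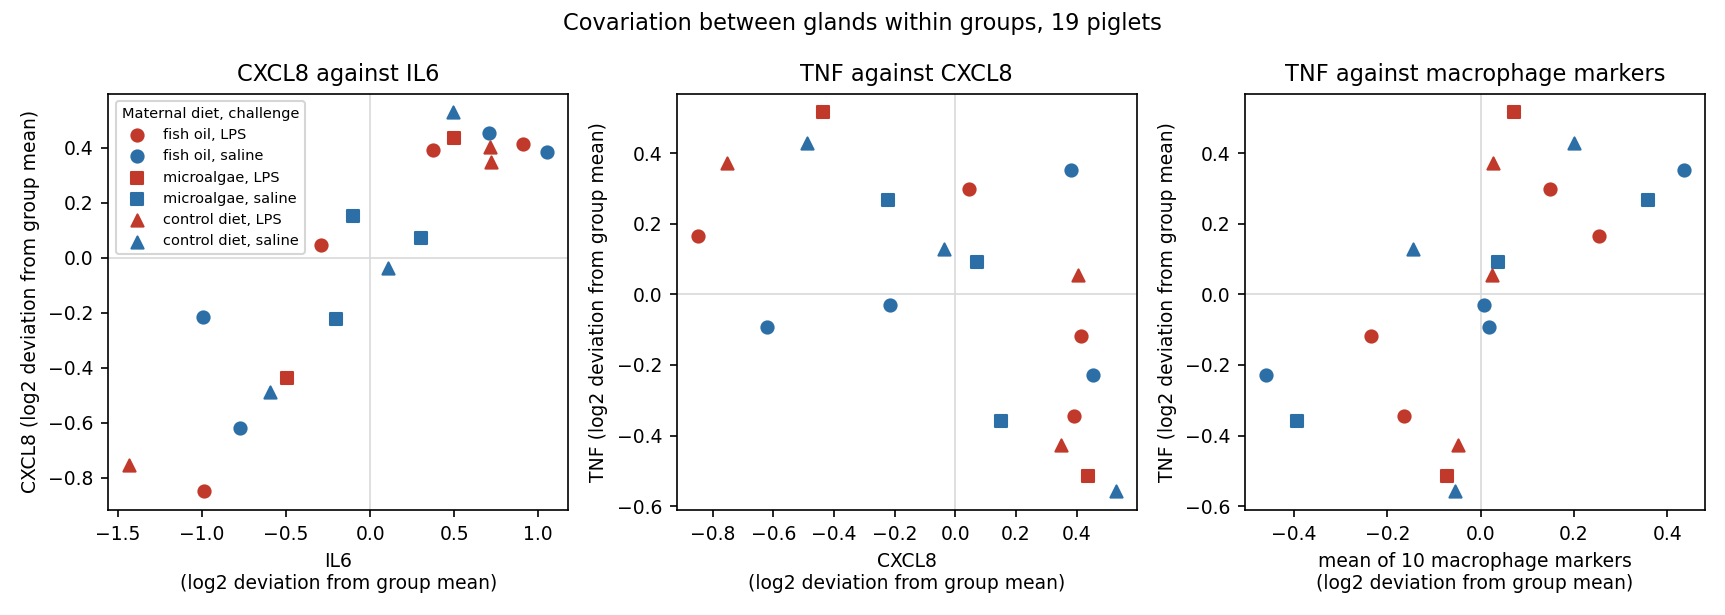
Log2 deviations from the group mean in 19 piglets: CXCL8 against IL6 (left), TNF against CXCL8 (middle) and TNF against the mean of 10 macrophage markers (right), with colour for the maternal challenge and shape for the maternal diet. IL6 and CXCL8 share a rising line (r = 0.916), TNF against CXCL8 slopes down (r = -0.622, adjusted p 0.0716 by exact permutation) and TNF against the macrophage markers slopes up (r = 0.637).

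Genes measured with their own probe set were ranked by the same within-group correlation with each cytokine. These values are descriptions over 19 piglets, with no p, and the genes were read on the same arrays. Of 9991 other genes, the one most like IL6 was CCL2, the monocyte attractant (r = 0.924). Next came NFKBIA, the inhibitor that holds NF-kB in the cytoplasm and is itself a target of NF-kB (0.921), CXCL8 (0.916), TNPO3, an importer of splicing factors into the nucleus (0.883), and SPRY2, a brake on growth factor signalling (0.879). The deposited values with the groups left in gave 0.856 for CCL2, 0.889 for NFKBIA, 0.810 for TNPO3 and 0.555 for SPRY2. Least like IL6 were CHMP6, a part of the membrane-sorting ESCRT machinery (-0.924), TESC, a calcium-binding protein (-0.881), and LOC100621538 (-0.876).

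The gene most like CXCL8 was IL6. It was followed by SPRY2 (r = 0.916), CCL2 (0.893), TNIP3, which binds TNFAIP3 to restrain NF-kB (0.875), and RPGRIP1L, a protein of the cilium base (0.874). FOXI2, a forkhead transcription factor (-0.902), THAP7, a transcriptional repressor (-0.892), and ZFYVE27, a membrane protein of the endoplasmic reticulum (-0.879), ran most against it. TNF ranked 9618th of 9991 for likeness to CXCL8 and 8872nd for likeness to IL6, and IL10 ranked 5060th and 4738th.

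CCL2 itself showed the same overlap between maternal challenges as IL6. Its log2 signal had a lowest value of 10.34, a median of 11.09 and a highest of 11.6 after maternal LPS, against 10.78, 11.28 and 11.73 after maternal saline. NFKBIA ranged from 8.95 to 9.73 after maternal LPS and from 9.12 to 9.80 after maternal saline. The maternal LPS difference was -0.26 ± 0.17 log2 for CCL2 (limma adjusted p 0.735) and -0.08 ± 0.14 for NFKBIA (0.893).

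The gene most like TNF was ZFYVE27 (r = 0.858), which was among those least like CXCL8. Next came RHBDF2, which in the mouse is required for the protease that releases TNF from the cell surface (0.857), CD80, a costimulatory protein of antigen-presenting cells (0.827), SLA-3, a pig MHC class I gene (0.826), and RBCK1, a subunit of the ubiquitin ligase of TNF receptor signalling (0.811). With the groups left in, ZFYVE27 had 0.417, RBCK1 0.501 and CD80 0.760. CD80 ranged from 4.40 to 5.93 after maternal LPS and from 4.69 to 6.23 after maternal saline. NSA2, a ribosome assembly factor (-0.878), PABPC4, a poly(A)-binding protein (-0.854), and ANAPC10, a subunit of a cell-cycle ubiquitin ligase (-0.854), ran most against TNF. NSA2 had -0.391 with the groups left in and -0.589 under quantile normalization.

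For IL10 the highest values were lower than for the other cytokines. They were 0.807 for CHRM5, a muscarinic acetylcholine receptor, 0.797 for PACRGL, 0.792 for TLDC2, 0.783 for C2CD4D and 0.774 for APCDD1L. The lowest were -0.8002 for PHOSPHO2, a phosphatase, -0.774 for NSMCE4A, a subunit of a DNA repair complex, and -0.774 for STRBP, an RNA-binding protein. With the groups left in, these 8 genes had smaller values, such as 0.571 for CHRM5 and -0.008346 for STRBP. Of the 20667 other probe sets, 1 had an r over 0.8 with IL10, against 47 with IL6, 66 with CXCL8 and 16 with TNF.

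Genes of the pathways around the cytokines were taken from lists, and 53 of 76 listed genes beside the 4 cytokines could be tested. The lists were chosen with earlier results of these data known, so shares within them are descriptions only. With IL6, 21 of the 53 had an r over 0.5, or 39.6%, against 11.9% of all probe sets tested, and 4 had an r under -0.5 (7.55% against 9.84%). The median r of the listed genes with IL6 was 0.377, against 0.0169 over all. Among the 21 were the NF-kB regulators NFKBIA and NFKBIZ (0.831), TNFAIP3, the enzyme that ends NF-kB signalling (0.666), and ZFP36, which speeds decay of cytokine mRNAs (0.663). The IL6-family cytokine LIF had 0.822, the neutrophil attractant CXCL2 0.767 and PTGS2, the inducible prostaglandin synthase, 0.749. The IL6 receptor chain IL6ST had 0.713 and the kinase JAK1 0.725, whereas STAT3 had 0.411. The 4 genes under -0.5 were IKBKG, the regulatory subunit of the kinase that frees NF-kB (-0.777), TRAF2 (-0.638), IRAK1 (-0.625) and the chemokine CCL3L1 (-0.602).

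CXCL8 gave nearly the same picture, with 19 of 53 genes over 0.5 (35.8%, against 11.9% of all) and 4 under -0.5 (7.55% against 10.3%). IKBKG was the lowest at -0.873. Its receptor CXCR2 had 0.335, CXCL2 had 0.762 and ACKR1, a decoy receptor that binds CXCL8 on vessels, had -0.224.

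TNF had 6 of 53 genes over 0.5 (11.3% against 7.29% of all) and 5 under -0.5 (9.43% against 10.1%), and a median r of -0.0239. The 6 were CCL3L1 (0.699), TRAF2, the adaptor of TNF receptors (0.619), lymphotoxin alpha LTA (0.581), SDC1, a heparan sulfate carrier (0.566), IKBKG (0.521) and TNFAIP8 (0.518). The 5 were ADAM17, the protease that releases TNF (-0.617), CHUK, a kinase that frees NF-kB (-0.584), TNFAIP3 (-0.580), TIMP3, an inhibitor of ADAM17 (-0.553), and NFKBIA (-0.502). The receptor TNFRSF1A had -0.0424. CCL3L1, TRAF2 and IKBKG were thus over 0.5 with TNF and under -0.5 with IL6, and ADAM17, CHUK, TNFAIP3, TIMP3 and NFKBIA the reverse.

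IL10 had 2 of 53 genes over 0.5 (3.77% against 3.17% of all), ACKR1 (0.673) and the neutrophil growth factor CSF3 (0.576), and 0 under -0.5 (2.23% of all). Its receptor chain IL10RA had 0.0692 and STAT3 0.281.

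**Figure D4:**
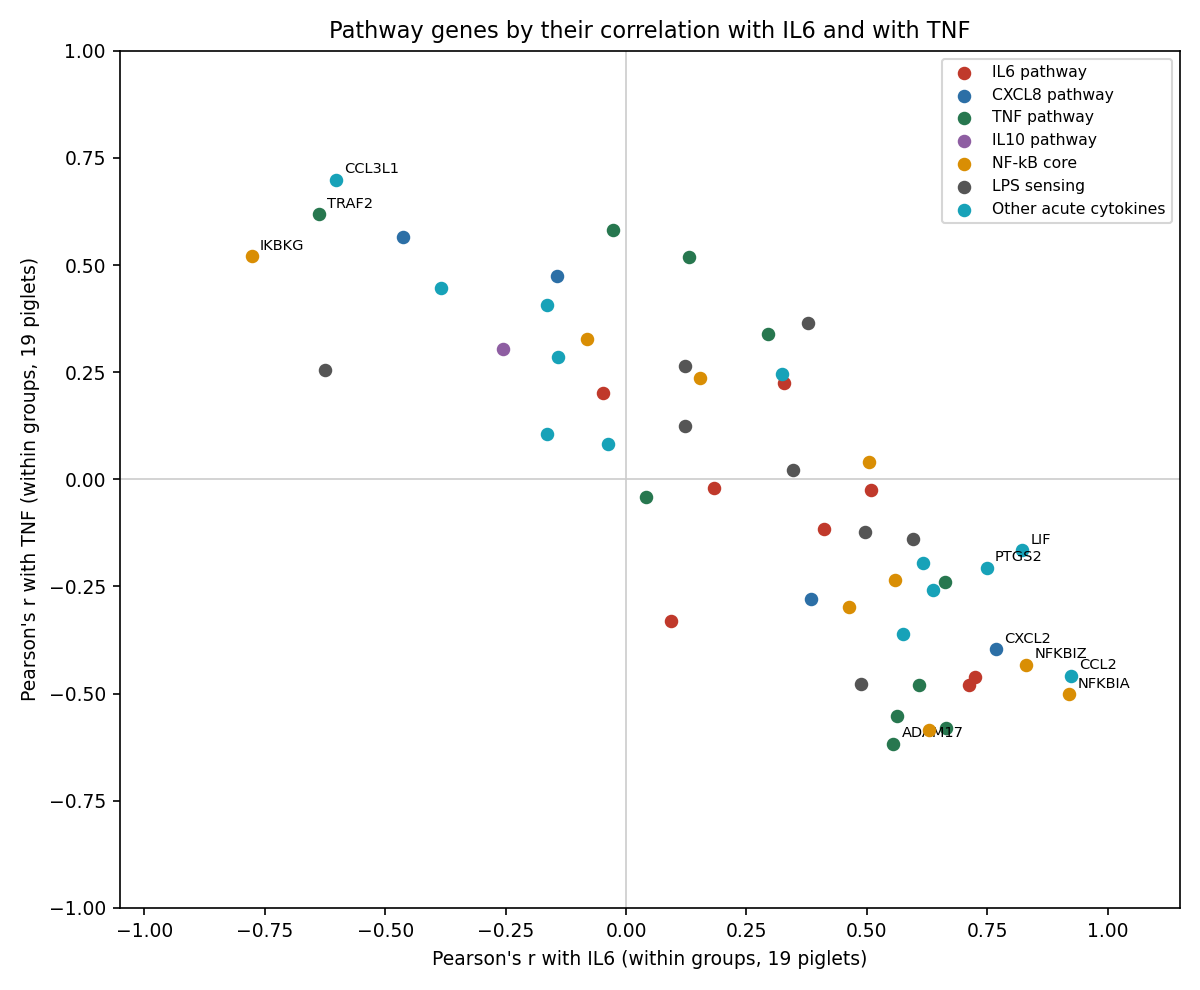
Pearson's r with IL6 (horizontal axis) and with TNF (vertical axis) for 53 genes of cytokine, NF-kB and LPS-sensing pathways, within groups over 19 piglets, coloured by list. Genes such as CCL2, NFKBIA and NFKBIZ lie at high r with IL6 and negative r with TNF, and CCL3L1, TRAF2 and IKBKG lie at the opposite corner.

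The same pathway genes were examined for maternal LPS. Their lists were chosen with earlier results of these data known, so a larger share among them is not a test. None of the 53 passed the adjusted threshold in limma, 22 were above 0 and 31 below, and the median difference was -0.02 log2, against 0.01 over all probe sets. At an unadjusted p under 0.05 there were 8 of 53, or 15.1%, against 6.97% of all probe sets. Lower after maternal LPS at that level were IRAK4 and MYD88, which carry the TLR4 signal (-0.48 ± 0.13 and -0.37 ± 0.11 log2), TNFAIP8 (-0.58 ± 0.17) and the kinase JAK2 (-0.42 ± 0.17). Higher were TRAF2 (0.33 ± 0.11), the NF-kB subunit NFKB2 (0.23 ± 0.09), the IL-12 subunit IL12B (0.21 ± 0.10) and ACKR1 (0.22 ± 0.10). Their limma adjusted p ran from 0.413 for IRAK4 to 0.697 for IL12B and ACKR1.

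By list, none of the genes passed the adjusted limma threshold in either direction. Of the LPS-sensing genes 7 of 8 were lower after maternal LPS, with 2 of them at an unadjusted p under 0.05 (MYD88 and IRAK4). Of the other acute cytokines 10 of 14 were lower, with 1 higher at that level (IL12B). In the TNF pathway 6 of 10 were lower, with TNFAIP8 lower and TRAF2 higher at that level, and in the NF-kB core 5 of 9 were lower, with NFKB2 higher. In the IL6 pathway 3 of 8 were lower, JAK2 among them, in the CXCL8 pathway 1 of 4, with ACKR1 higher, and in the IL10 pathway 1 of 4, with none at that level. Over all probe sets 48.2% were lower.

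Marker genes of 7 cell types that may be present in an adrenal gland were averaged for each piglet and compared with each cytokine within groups. Of the 28 combinations of 4 cytokines and 7 cell types, 1 passed adjustment. TNF rose with the macrophage markers, at r = 0.637 (exact permutation p 0.000844, adjusted over the 28 combinations 0.0236) and rho = 0.758 (exact permutation p 0.000547). The r was 0.615 among piglets of LPS-injected sows and 0.722 among those of saline-injected sows. The adjusted p rose above 0.05 without any 1 of piglets 8, 12, 13, 15 and 22, to at most 0.0837, with r from 0.585 to 0.690 over all 19 omissions. Without piglets 13 and 18, the farthest for these markers, r was 0.624 (adjusted exact permutation p 0.126).

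The macrophage list held 10 of 12 markers. CD163 and CD68 were not measured by a probe set bearing their symbol alone, and AIF1, with a mean of 3.23, lay at the limit for dim probe sets. All 10 correlated positively with TNF, led by CD86, a costimulatory protein (0.748), the complement genes C1QB (0.667) and C1QA (0.593), AIF1 (0.641) and CSF1R, the receptor of the macrophage growth factor (0.481), with MRC1 lowest (0.0423). With CXCL8, 2 of the 10 were positive, and the list had r = -0.418 (adjusted exact permutation p 0.323, and 0.0333 at r = -0.648 without piglet 18). That was the only 1 of 19 single omissions to pass, and without piglet 10 r was -0.322. With IL6 the list had -0.257, from -0.588 (without piglet 18) to -0.138 (without piglet 13) over single omissions, and -0.476 without piglets 13 and 18 (exact permutation p 0.02 before adjustment). Among piglets of LPS-injected sows it was -0.688 and among those of saline-injected sows -0.0410, a difference that was not tested. With IL10 the list had 0.285, and -0.219 without piglets 13 and 18. The mean of the list ran from 4.95 to 5.52 with a median of 5.35 after maternal LPS, and from 4.83 to 5.92 with a median of 5.23 after maternal saline. After maternal LPS 4 of the 10 markers were higher and 6 lower. Only ITGAM, higher by 0.37 log2, had an unadjusted limma p under 0.05 (adjusted 0.669). The part of macrophage number in the TNF signal was not tested.

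Neutrophil markers, for which 5 of 10 genes could be used (S100A8, S100A9, S100A12, CXCR2 and MPO), showed r of 0.0542 with IL6 and 0.0328 with CXCL8. Their mean ran from 4.06 to 4.89 after maternal LPS and from 4.09 to 4.71 after maternal saline. Of these 5 markers 3 were higher after maternal LPS and 2 lower, S100A12 (-0.38 log2) and MPO (-0.13). Only S100A9, higher by 0.32 log2, had an unadjusted limma p under 0.05, against 6.97% of all probe sets. It did not pass adjustment.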

How the data were processed

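The values are log2 signals of 1 Affymetrix array per piglet, as deposited by the authors. Per the submitters' processing notes, Transcriptome Analysis Console 4.0 was used. The sources used here do not name the summarization or normalization method, and base 2 was inferred from the range, 0.263 to 13.5. Per the labels' protocols, a Qiagen RNeasy kit gave the RNA. Of 27558 probe sets, 13157 have 1 gene symbol, 523 several and 13878 none, and 7 symbols were updated. Array control probe sets were not identified and stayed in.

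Probe sets with a mean under 3.23, the dimmest 25% (6890), were left out. The means of the 6 groups were fitted with limma 3.58.1 under R 4.3.3, with a trend of variance on intensity, 13 residual and 4.62 prior degrees of freedom, over 20668 probe sets, with Benjamini-Hochberg adjustment and a threshold of 0.05. Exact permutations of the group differences were run in R. Those of the correlations were run in Python 3.11.15 with NumPy 2.4.6. For correlations of the values as deposited, 100000 random permutations took their place. The limma fit and the exact permutations of the correlations were tested on simulated data. Replicates are piglets of different sows. The named genes are the 5 most and 3 least like each cytokine and, from the lists, those with an unadjusted p under 0.05 for maternal LPS. Receptors, members over 0.5 or under -0.5 in r, and single markers were named after their values were seen. The members and lists were chosen with earlier results of these data known. Promoter motifs were planned but not analysed here.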

Additional observations from a re-analysis of the deposited data

How the results depend on the processing

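No cytokine passed the adjusted limma threshold for maternal LPS, diet or their interaction under any alternative run: array weights, no intensity trend, no filter, a filter at 50%, which removed IL10 and so gave it no value, median centring, quantile normalization, the array spread as covariate, an additive model (for maternal LPS over the diets and for each diet, with no value within diets or for interactions), each piglet left out, or piglets 6 and 24 left out. Directions near 0 turned. IL6 in control litters was -0.01468 with quantile normalization and -0.0002383 with median centring. IL10 for fish oil was 0.0147, 0.002041 and 0.0005909 with quantile normalization, median centring and the array spread. Leaving out each piglet gave, for maternal LPS, -0.1857 to 0.1576 for TNF over the diets, -0.4356 to 0.05481 for CXCL8 in fish oil litters, -0.6837 to 0.3462 for TNF in microalgae litters, and -0.3413 to 0.7332 for IL6 and -0.1156 to 0.5062 for CXCL8 in control litters. For diet it gave -0.06683 to 0.05226 for IL10 with fish oil, and -0.2937 to 0.1428 for CXCL8 and -0.1826 to 0.3323 for TNF with microalgae. Where this left 1 microalgae LPS piglet, it was assumed to vary like the other groups. The correlation of IL6 with CXCL8 stayed past the threshold under every alternative run. Leaving out each piglet gave -0.6445 to -0.3493 for IL6 with TNF, -0.09682 to 0.3139 for IL6 with IL10, -0.7385 to -0.5568 for CXCL8 with TNF and -0.2079 to 0.2572 for CXCL8 with IL10. Spearman's rho was -0.6895 for CXCL8 with TNF, now past the threshold, and -0.09298 for CXCL8 with IL10, which had -0.2054 without the 2 farthest piglets. TNF with the macrophage markers lost the threshold with median centring (0.5952), without the 2 farthest piglets (0.6241), with the array spread removed (0.6224) and without piglets 6 and 24 (0.6478), and ranged from 0.5846 to 0.6898 over single omissions. IL10 with these markers had -0.2192 without the 2 farthest piglets and -0.07014 to 0.4564 over single omissions, and CXCL8 with them -0.648 to -0.3217. The causes were not tested. Over all probe sets 0 to 9 passed for maternal LPS across the processing settings, against 2 in the reported fit, and 0 to 12 with single piglets left out. Chosen after seeing the data were the permutation tests of effects, the pair correlations with the array spread removed or without piglets 6 and 24, the settings of the correlations with the cell markers other than rho and the 2 farthest piglets, and those of the likeness values. IL10 lay close to the limit for dim probe sets, where signal over background limits precision.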

Other observations

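Other cell type markers gave correlations with the cytokines that did not pass adjustment over the 28 combinations, and only lymphocyte markers with TNF and endothelial markers with IL10 had an unadjusted p under 0.05. Medulla markers (DBH, PNMT, CHGB, SLC18A1 and SYT1, genes of catecholamine synthesis and storage) had r = -0.495 with IL6 and -0.538 with CXCL8, with adjusted exact permutation p of 0.323 and 0.287, and 0.461 with TNF (0.394). Without piglets 16 and 23, the farthest for these markers, the values were -0.362 with IL6, -0.435 with CXCL8 and 0.0449 with TNF. Cortex markers (CYP17A1, CYP21A2, HSD3B1 and SCARB1, of steroid synthesis and cholesterol uptake) had 0.431 with IL6, 0.425 with CXCL8 and -0.568 with TNF, with adjusted exact permutation p of 0.323, 0.384 and 0.287. Without piglets 8 and 16 they had 0.270 with IL6, 0.209 with CXCL8 and -0.309 with TNF. Endothelial markers had -0.493 with IL10 (adjusted exact permutation p 0.18) and -0.451 without piglets 10 and 12. Lymphocyte markers had 0.434 with TNF (0.287) and 0.438 without piglets 13 and 19. Fibroblast markers had 0.342 with IL6 (0.71), and -0.130 without piglets 6 and 24.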
